A study of Homo sapiens with 66 samples.

Results

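HIF-1β binding was compared between HepG2 and RCC4 cells at 2335 genomic regions, each called in both HIF-1β libraries of at least 1 of these cell lines. HIF-1β sites of a line were taken as the merged intervals of overlapping peaks from its 2 peak lists, and an overlap of 1 bp was enough. This gave 2156 sites in HepG2 and 449 in RCC4. A region was common when it was a site in both lines (269 regions), HepG2 only when no RCC4 list had a peak there (1668 regions) and RCC4 only when no HepG2 list had one (140 regions). The other regions, 219 from HepG2 and 39 from RCC4, overlapped a peak in 1 of the 2 libraries of the other line and were kept apart. Over the whole series, 25 groups of 2 peak lists gave 29729 sites called in both lists of a group.

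The study mapped HIF subunits by chromatin immunoprecipitation and sequencing (ChIP-seq) in several cell lines and degrees of hypoxia, with 66 samples of which 50 had a peak list. HepG2, an established line from a hepatocellular cancer, had been held at 0.5% oxygen for 16 h, and its HIF-1β libraries were replicates 1 and 2. RCC4, an established line from a kidney cancer, was in normoxia, and its HIF-1β libraries were titled repeat 2 and 3. RCC4 lacks functional VHL, the ubiquitin ligase subunit that marks HIF-α for destruction, so that HIF-α is present without hypoxia. The same rabbit polyclonal antibody to HIF-1β was used for all 4 libraries. Each line is a single cancer line, so that organ, genotype, oxygen, time and experiment cannot be told apart in what follows. Nothing in the labels says whether the replicates came from separate cultures. Peak lists hold no expression values, so the lines could not be checked against the expression of liver or kidney markers.

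HIF-1β, encoded by ARNT, is the constitutive partner of the oxygen-regulated subunits HIF-1α and HIF-2α, and each HIF-α:HIF-1β dimer binds a short core sequence within the hypoxia response element (HRE). In normal oxygen the EGLN prolyl hydroxylases mark HIF-α for recognition by VHL, and in low oxygen or without VHL the dimers form and activate genes of glycolysis, angiogenesis, autophagy and pH control. Many HRE cores in the genome are not bound, and the bound set is known to differ between cell types, with open chromatin and other transcription factors. FOXA, HNF4, HNF1 and C/EBP proteins are the classical transcription factors of liver cells, AP-1 is the dimer of FOS and JUN proteins, and GC boxes of SP1 are common in promoters.

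Sequences are shown for 4 of the 5 highest-ranked common sites, for 3 of the 4 highest-ranked HepG2-only sites and for the 4 highest-ranked RCC4-only sites, since they hold the motif that the classes shared. Sites are named by the protein-coding gene with the nearest transcription start site (TSS). Each line gives 5′ to 3′ the plus strand of GRCh37 around the HRE core nearest to the peak centre, with 101 bases, or with 29 where the window touched an annotated UTR. Capitals mark the HRE core, ACGTG or GCGTG, or CACGT and CACGC where it lies on the minus strand. The common sites were the following.
ANKRD37, a nuclear ankyrin repeat protein induced by HIF, chr4:186317629-186317729: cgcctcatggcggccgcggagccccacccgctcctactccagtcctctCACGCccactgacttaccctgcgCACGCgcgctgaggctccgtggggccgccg
GPI, glucose-6-phosphate isomerase, chr19:34850329-34850357: ctgaccacccggACGTGctggcccacacg
ENO1, the glycolytic enolase, chr1:8938895-8938923: acggctgcagtaGCGTGgaaaggggggtg
PPP1R3C, a phosphatase subunit that promotes glycogen synthesis, chr10:93392914-93393014: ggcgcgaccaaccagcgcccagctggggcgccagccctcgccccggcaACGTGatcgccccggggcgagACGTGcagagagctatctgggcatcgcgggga
The HepG2-only sites were these.
INO80D, a chromatin remodelling subunit, chr2:206840321-206840421: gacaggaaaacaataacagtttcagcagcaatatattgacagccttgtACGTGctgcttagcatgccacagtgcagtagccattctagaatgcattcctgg
SLC8A3, a sodium-calcium exchanger, chr14:70512964-70512992: gttgctgcccgtCACGTtgccaatggagg
INHA, the inhibin alpha subunit, chr2:220441736-220441836: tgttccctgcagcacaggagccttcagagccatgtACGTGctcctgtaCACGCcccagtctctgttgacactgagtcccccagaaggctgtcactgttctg
The RCC4-only sites were these.
SNAPC1, a subunit of the small nuclear RNA activating complex, chr14:62217842-62217942: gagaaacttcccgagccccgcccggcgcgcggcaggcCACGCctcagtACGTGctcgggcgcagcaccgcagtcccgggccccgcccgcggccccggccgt
RARA, retinoic acid receptor alpha, chr17:38468728-38468828: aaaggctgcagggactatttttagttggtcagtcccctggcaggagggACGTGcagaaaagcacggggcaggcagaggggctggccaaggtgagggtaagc
SLC2A3, the glucose transporter GLUT3, chr12:8123374-8123474: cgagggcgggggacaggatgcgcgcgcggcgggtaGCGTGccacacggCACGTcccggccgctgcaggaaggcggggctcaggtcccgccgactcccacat
DEPP1, a FOXO-regulated protein of autophagy, chr10:45477757-45477857: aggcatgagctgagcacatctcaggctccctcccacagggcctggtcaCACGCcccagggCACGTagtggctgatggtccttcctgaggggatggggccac

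The windows were placed on a core, so its presence in them is no result. Of the sites described by name below, 7 of the 10 best-ranked common, 6 of the 8 best-ranked HepG2-only and 7 of the 8 best-ranked RCC4-only sites had a core within 100 bp of the peak centre. The printed windows of ANKRD37 and PPP1R3C held 2 cores, as did those of INHA, SNAPC1, SLC2A3 and DEPP1.

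The 4 peak lists differed in length. HepG2 replicate 1 had 6171 peaks and replicate 2 had 3986, while RCC4 replicate 2 had 911 and replicate 3 had 1305. Read depth is unknown from a peak list, and list length can vary with it. Each peak carried a score from the authors' peak caller, read here as 10 times the negative log10 of its p-value, and the lowest score of the lists, 50, is then a p of 1e-05. A region missing from a list may lie just under that limit. Scores were therefore used only to rank peaks within a list, with rank 1 for the highest score, and 13 peaks of HepG2 replicate 1 and 7 of replicate 2 shared a score of 3100 and so a rank. A rank percentile is a rank as a share of the list, so that low values are strong peaks. Of the peaks in a list, 35.22% and 54.38% in HepG2 and 49.45% and 34.56% in RCC4 were also called in the other replicate.

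The overlap of the lines depended on which line it was read from. The common regions were 12.48% of the HepG2 sites (95% Clopper-Pearson interval 11.11 to 13.95%), and they covered 270 RCC4 sites, 60.13% of that list (55.44 to 64.69%). These intervals cover counting error only. When the sites were shifted by 10 kb, 0.3711% of HepG2 sites and 1.336% of RCC4 sites overlapped a site of the other line. HepG2-only regions made up 77.37% of the HepG2 sites and RCC4-only regions 31.18% of the RCC4 sites. Taking as many of the highest-ranked HepG2 sites as there were RCC4 sites, 40.31% were common and 47.66% had no RCC4 HIF-1β peak. Strong HepG2 sites without an RCC4 HIF-1β call thus remained at equal numbers. The RCC4 lists were unchanged in this comparison, so such a site may lie just under their limit. The RCC4 set is also smaller than the study's. The study counts more RCC4 sites with HIF-1α and HIF-1β in both replicates than there were HIF-1β sites here, and likewise for HIF-2α. It also reports HIF-1β signal above background at its HIF-α sites in RCC4. The cause of the smaller set was not tested. With RCC4 replicate 2 or 3 left out, so that all peaks of the remaining list counted as sites, the common share of RCC4 sites was 30.11% or 40.53%, and with HepG2 replicate 1 or 2 left out the common share of HepG2 sites was 6.949% or 4.916%. With all 4 lists reduced to the 908 highest-ranked peaks, the shares were 29.47% of HepG2 and 48.14% of RCC4 sites. Few sites of a line lay beside one of the other, since 1.619% of HepG2-only regions were within 10 kb of an RCC4 site and 4.286% of RCC4-only regions were within 10 kb of a HepG2 site.

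**Figure D1:**
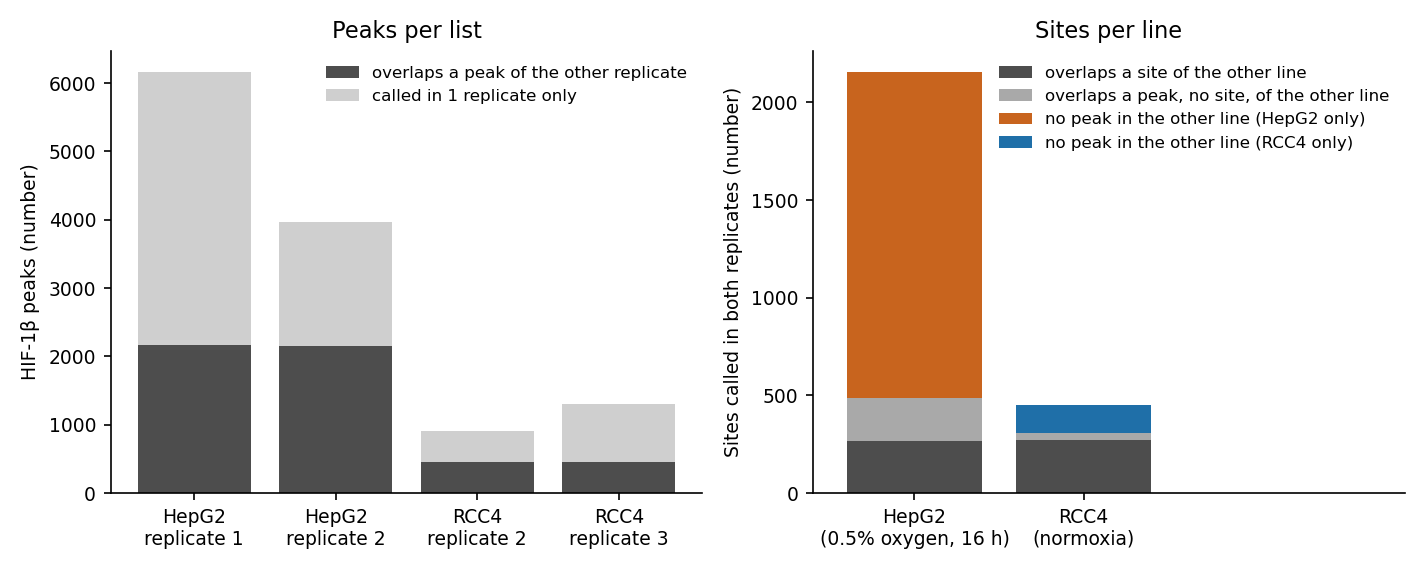
Left, number of HIF-1β peaks in each list, split by overlap with a peak of the other replicate. Right, number of HIF-1β sites called in both replicates of each line, by class. The 269 common regions are a small part of the 2156 HepG2 sites and most of the 449 RCC4 sites.

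Common sites were concentrated among the strongest peaks of HepG2. Of the HepG2 sites in the highest quintile by mean rank, 41.67% were common, and in the following quintiles the share was 10.44%, 3.944%, 3.248% and 3.016%. In RCC4 the shares ran 80.00%, 68.89%, 51.11%, 50% and 50.56%. Quintiles held 431 or 432 sites in HepG2 and 89 or 90 in RCC4, so the falls in the lines cannot be set against each other. The median rank percentile of the common sites was 3.894 and 6.093 in the HepG2 libraries and 23.35 and 14.44 in the RCC4 libraries. HepG2-only sites stood at 22.83 and 32.23 in HepG2, and RCC4-only sites stood at 32.71 and 25.71 in RCC4. In each of the 4 libraries the common sites thus had better median ranks than the sites of 1 line.

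**Figure D2:**
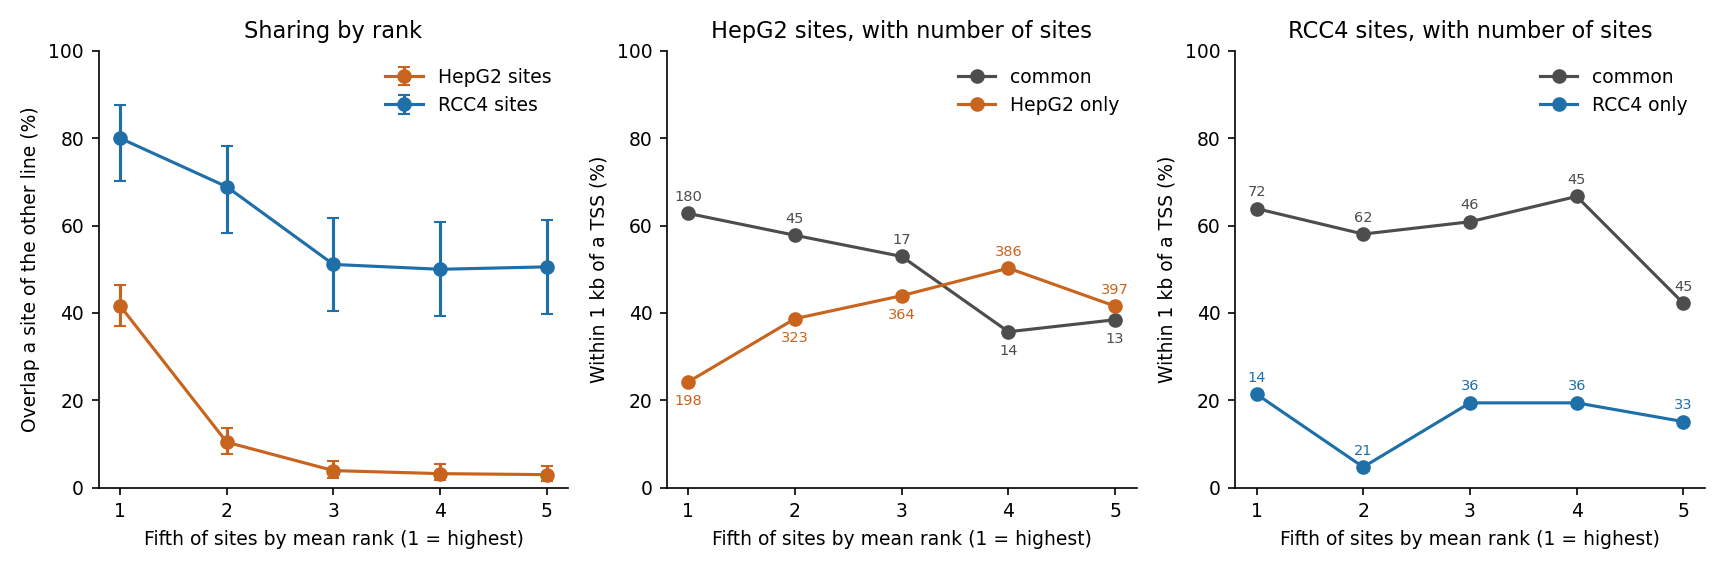
Left, share of sites that were common, in percent, by quintile of rank within HepG2 and within RCC4, from the strongest to the weakest sites, with 95% Clopper-Pearson intervals. Middle and right, share within 1 kb of a TSS, in percent, of common and line-only sites in HepG2 and in RCC4 by quintile, with the number of sites. In HepG2 the common share drops from 41.67% to 10.44% after the first quintile, and in RCC4 it stays at or above 50%.

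Within the common sites, ranks in the lines followed each other. Spearman's rho of the mean rank percentiles was 0.6144 over 269 sites, beside 0.9106 between the HepG2 replicates and 0.7761 between the RCC4 replicates. Between single libraries of different lines rho was 0.5667 to 0.6082. These values describe sites, which are not independent replicates and share libraries, sequence composition and chromatin openness.

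Ranks in every library are given for the 10 common sites with the best mean rank. The ANKRD37 site ranked 5 and 1 in HepG2 replicates 1 and 2 and 1 and 1 in RCC4 replicates 2 and 3. The site at GPI, which converts glucose-6-phosphate to fructose-6-phosphate, ranked 5 and 1 in HepG2 and 2 and 3 in RCC4. The site at ENO1, which makes phosphoenolpyruvate, ranked 5 and 1 in HepG2 and 3 and 2 in RCC4. These 3 sites were among the 5 highest ranks of every list, and in HepG2 replicate 1 they shared rank 5 with the other peaks of the same score. ZNF395, a zinc finger gene, followed with ranks of 27 and 16 in HepG2 and 5 and 7 in RCC4. The site at PPP1R3C ranked 5 and 18 in HepG2 and 7 and 9 in RCC4. PDK1 encodes the kinase that shuts pyruvate dehydrogenase, and its site ranked 2 and 12 in HepG2 and 13 and 8 in RCC4. The site at PGAM1, phosphoglycerate mutase, ranked 3 and 22 in HepG2 and 14 and 10 in RCC4, and that of BNIP3L, a receptor for mitophagy, ranked 31 and 14 in HepG2 and 12 and 18 in RCC4. LDHA, the lactate dehydrogenase subunit, had ranks of 26 and 52 in HepG2 and 9 and 11 in RCC4. PNRC1, a nuclear receptor coactivator gene, closed the set with ranks of 5 and 15 in HepG2 and 11 and 25 in RCC4. Apart from ZNF395, whose site was 9.367 kb from the TSS in an intron of FBXO16, these sites lay within 0.3050 kb of the TSS.

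Other common sites stood at different positions within the lists. Lists of unequal length make neither ranks nor rank percentiles a measure of binding between lines, and the common sites as a whole had lower percentiles in HepG2. The site 102.9 kb from the TSS of PIK3R1, the regulatory subunit of PI3 kinase, ranked 327 and 182 in HepG2 but 838 and 1200 in RCC4. At PCBP1, an RNA-binding protein gene, the ranks were 377 and 212 in HepG2 and 750 and 1082 in RCC4. At TLE1, a corepressor gene, they were 160 and 278 in HepG2 and 808 and 844 in RCC4. As rank percentiles the HepG2 means of these 3 sites were 4.944, 5.727 and 4.797, and the RCC4 means were 92.12, 82.76 and 76.83. In the opposite direction, the site near NCKAP5 had mean rank percentiles of 71.81 in HepG2 and 19.26 in RCC4. CUBN, which encodes the endocytic receptor cubilin of the kidney's proximal tubule, had an intronic site that ranked 3227 and 2417 in HepG2 and 125 and 68 in RCC4. GTF2IRD2 had mean rank percentiles of 71.19 in HepG2 and 25.44 in RCC4, and is uncertain because it lies in near-identical duplicated copies. The replicates of the lines did not overlap in any of these 6 sites, which were chosen for that difference and carry no test.

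**Figure D3:**
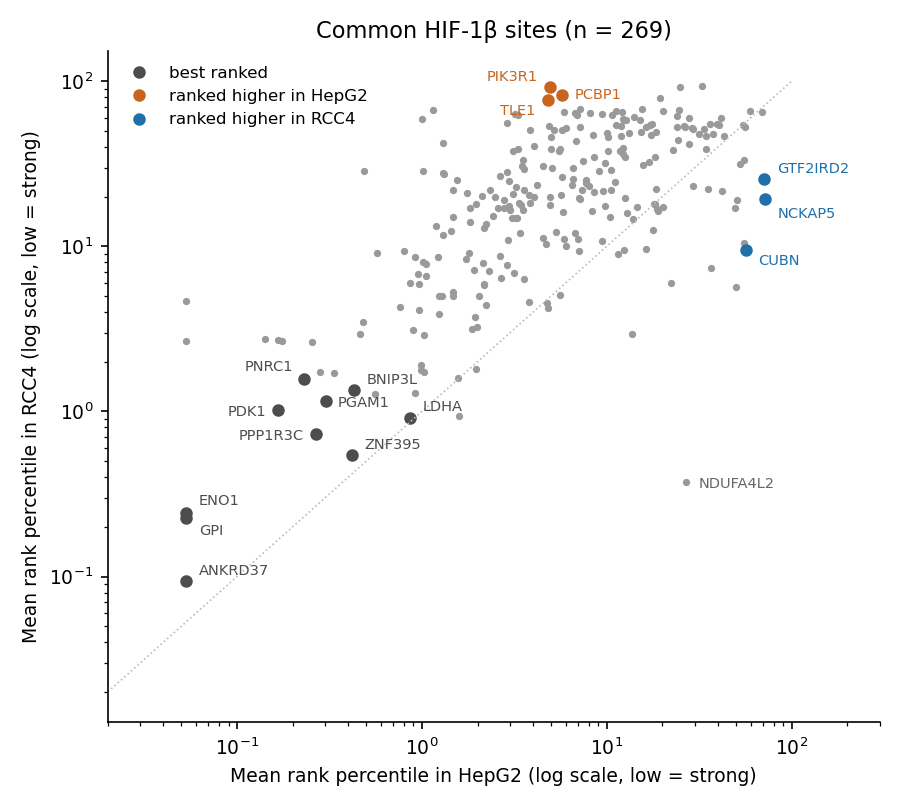
Mean rank percentile of the 269 common sites in RCC4 against HepG2, both on log scales on which low values are strong peaks. Labels mark the best-ranked sites, those chosen for the largest difference in rank, and NDUFA4L2. ANKRD37, GPI and ENO1 sit at the strong end of both lines, and PIK3R1, PCBP1 and TLE1 lie far from NCKAP5, CUBN and GTF2IRD2.

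The strongest HepG2-only sites ranked among the first peaks of both HepG2 lists and had no peak in either RCC4 HIF-1β list. The site 87.60 kb from the TSS of INO80D ranked 5 and 20. Those of SLC8A3, in a coding exon, and of WDR72 ranked 25 and 19, and 23 and 27. Further sites were near INHA, with ranks of 41 and 39, VOPP1, with 51 and 33, and ZNF747, with 35 and 58. A site 4.682 kb from the TSS of KDM4C, a histone demethylase gene induced by HIF, ranked 85 and 26, and KDM4C also had a common site at its promoter, 0.05400 kb from the TSS, with ranks of 123 and 88 in HepG2 and 140 and 326 in RCC4. The eighth site was 50.34 kb from FOXA2, a pioneer factor of liver and other endoderm, and ranked 65 and 56. None of these 8 sites lay within 1 kb of a TSS, and none had a peak in any of the 4 HIF-α lists of RCC4.

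The strongest RCC4-only site ranked 6 and 6 and lay 11.21 kb upstream of SNAPC1, between HIF1A and SNAPC1. It had no peak in any HepG2 list of HIF-1α, HIF-2α or HIF-1β. RARA followed, with ranks of 22 and 31 in an intron. SLC2A3, the gene of the high-affinity glucose transporter GLUT3, had ranks of 32 and 56. DEPP1 had ranks of 61 and 21, and FRMD4A had ranks of 45 and 50. HK1, the hexokinase of most tissues, had ranks of 43 and 55 at 0.2820 kb from a TSS, and was the only one of these 8 sites within 1 kb of a TSS. SUSD1 had ranks of 49 and 47, and COL4A1, a collagen chain of basement membranes, had ranks of 56 and 66 for a site 163.1 kb away. In HepG2, 1 of the 4 HIF-α lists had a peak at the RARA and the HK1 site, and none did at the other 6.

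The classes differed in their distance to promoters. Of the common regions, 159 (59.11%) lay within 1 kb of a protein-coding TSS. The count was 692 (41.49%) of the HepG2-only and 23 (16.43%) of the RCC4-only regions. The median distance of common sites was 0.388 and 0.352 kb in the HepG2 libraries and 0.4395 and 0.4665 kb in the RCC4 libraries. It was 3.442 and 3.463 kb for HepG2-only sites and 26.12 and 26.15 kb for RCC4-only sites. RCC4-only regions were most often 10 to 100 kb from a TSS (60 regions, 42.86%), and 26 (18.57%) lay farther than that. Introns held the centre of 69 RCC4-only regions (49.29%), 555 HepG2-only regions (33.27%) and 83 common regions.

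Within ranks the comparison varied in HepG2. In the highest HepG2 quintile, 113 of 180 common sites (62.78%) and 48 of 198 HepG2-only sites (24.24%) were promoter-proximal. In the following quintiles, which held 45, 17, 14 and 13 common sites, the common share was 57.78%, 52.94%, 35.71% and 38.46%. Over the same quintiles from the first, the promoter-proximal share of HepG2-only sites ran 24.24%, 38.70%, 43.96%, 50.26% and 41.56%, so that common sites had the higher share in the upper 3 quintiles and the lower share in the last 2. In RCC4 the common sites ran 63.89%, 58.06%, 60.87%, 66.67% and 42.22% and the RCC4-only sites 21.43%, 4.762%, 19.44%, 19.44% and 15.15%, with the common share higher in each. Over all peaks the lines were close, with 31.34% ± 0.3786 promoter-proximal in HepG2 and 33.25% ± 0.3206 in RCC4 (SD, n = 2 libraries each). The exact two-sided permutation test of that difference gave p = 0.33, the smallest that 2 libraries against 2 allow, and 0.6190 after adjustment over 13 such tests, so the threshold of 0.05 could not be reached. In lists of equal length that difference reversed, to 9.141 percentage points more in HepG2. The difference between common and HepG2-only sites, 17.50 points, was 32.46 or 27.21 without HepG2 replicate 1 or 2.

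**Figure D4:**
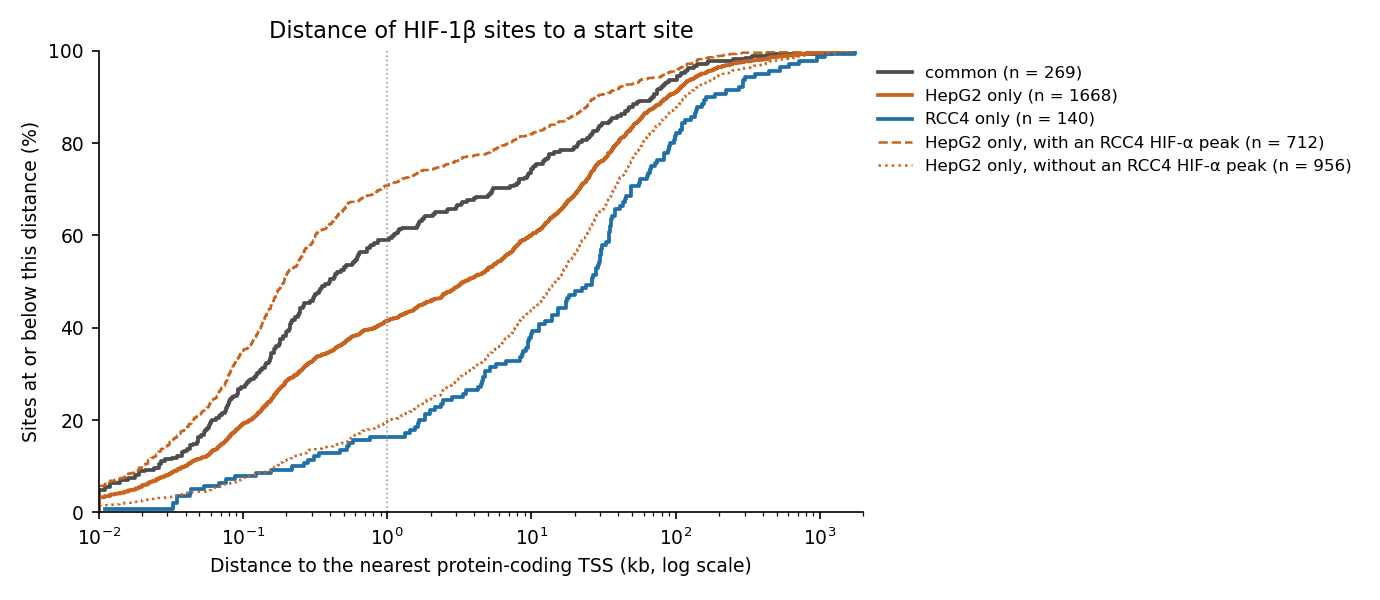
Cumulative share of sites, in percent, against the distance to the nearest protein-coding TSS in kb on a log scale, for the 3 classes and for HepG2-only sites with and without an RCC4 HIF-α peak, with the dotted vertical line at 1 kb. At 1 kb the curves stand at 59.11% for common, 41.49% for HepG2-only and 16.43% for RCC4-only sites.

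Motifs on either strand were counted in the 201 bp around each peak centre, 100 bp on each side, with windows at 2 kb to either side as background. The HRE core (ACGTG or GCGTG) was in 78.81% and 75.09% of the common sites in HepG2 and in 76.67% and 74.81% in RCC4. It was in 72.12% and 72.00% of HepG2-only sites and in 75.00% and 78.57% of RCC4-only sites. The flanking windows held it in 23.93 to 27.78% on average, and 38.14% of 35116 human promoters of RefSeq (GRCh38.p14), over windows of the same length, held it as well. The classes thus had HRE cores at close to the same share. The difference of common minus HepG2-only sites, 4.889 percentage points, was 25.06 or 24.40 without HepG2 replicate 1 or 2, and that of common minus RCC4-only sites, -1.045 points, was 28.55 or 19.26 without RCC4 replicate 2 or 3. Of the common sites, 43.49% and 41.26% in HepG2 had 2 or more cores, against 33.39% and 32.73% of the HepG2-only sites, while in RCC4 it was 45.19% and 39.26% against 36.43% and 37.14%. Among peaks called in a single replicate, the core was in 47.18% and 29.08% in HepG2 and in 56.64% and 45.32% in RCC4.

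Motifs of other factors differed between the classes. The FOXA motif (TGTTTAC and the variants TGTTTGC and TATTTAC) was in 11.39% and 11.75% of HepG2-only sites, above the mean of 8.648% in their flanks. It was in 4.833% and 6.320% of common sites in HepG2 and in 3.571% and 4.286% of RCC4-only sites. These shares lay below the flank means of 7.435% and 7.857%. The HNF4 motif (CAAAGTCCA, CAAAGTTCA or CAAAGGTCA) was in 1.978% and 1.918% of HepG2-only sites, in no common site, and in 2.143% of RCC4-only sites in both libraries, which are 3 sites. The AP-1 motif (TGACTCA or TGAGTCA) was in 17.14% and 18.57% of RCC4-only sites, beside 8.889% and 8.148% of common sites in RCC4 and 6.415% and 5.935% of HepG2-only sites in HepG2. The GC box GGGCGG was in 43.87% and 47.21% of the common sites in HepG2 and in 28.18% and 27.40% of HepG2-only sites. It was in 50% and 48.15% of the common sites in RCC4 and in 19.29% and 18.57% of RCC4-only sites. Mean GC content moved with it, at 63.84% and 63.31% for common and 57.26% and 57.02% for HepG2-only sites, and its part in the motif shares was not tested.

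Leaving out promoter-proximal sites kept the FOXA difference and removed that of AP-1 between common and RCC4-only sites. The values with and without promoter-proximal sites were here counted once per region, not per library. Over all regions, AP-1 was in 10.41% of common, 6.475% of HepG2-only and 15.71% of RCC4-only regions. FOXA was in 4.089%, 11.57% and 2.857%. Beyond 1 kb of a TSS, the FOXA motif was in 154 of 976 HepG2-only sites (15.78%), in 3 of 110 common sites and in 3 of 117 RCC4-only sites (2.564%). The AP-1 motif was in 20 of 110 distal common sites (18.18%), in 85 of 976 HepG2-only sites (8.709%) and in 21 of 117 RCC4-only sites (17.95%). The remaining motifs moved little. The E-box CACGTG, which overlaps the HRE core, was in 9.113 to 10.67% of HepG2-only and in 10.71% of RCC4-only sites. The TEAD motif GGAATG was in 11.57 to 12.11% and in 11.43 to 17.14%. The C/EBP motif (TTGCGCAA, TTGCACAA, TTGTGCAA or TTGCATCA) was in 1.439 to 1.739% and in 2.143 to 2.857%, and the HNF1 motif (GTTAATNAT) was in 0.5396 to 0.7194% of HepG2-only sites and in no RCC4-only site. Among all promoters of RefSeq these shares were 5.516% for the E-box, 3.642% for AP-1, 6.459% for FOXA, 0.7717% for HNF4, 0.6009% for HNF1, 1.262% for C/EBP, 40.15% for the GC box and 9.517% for TEAD. A match describes letters in a window and is not a bound site.

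**Figure D5:**
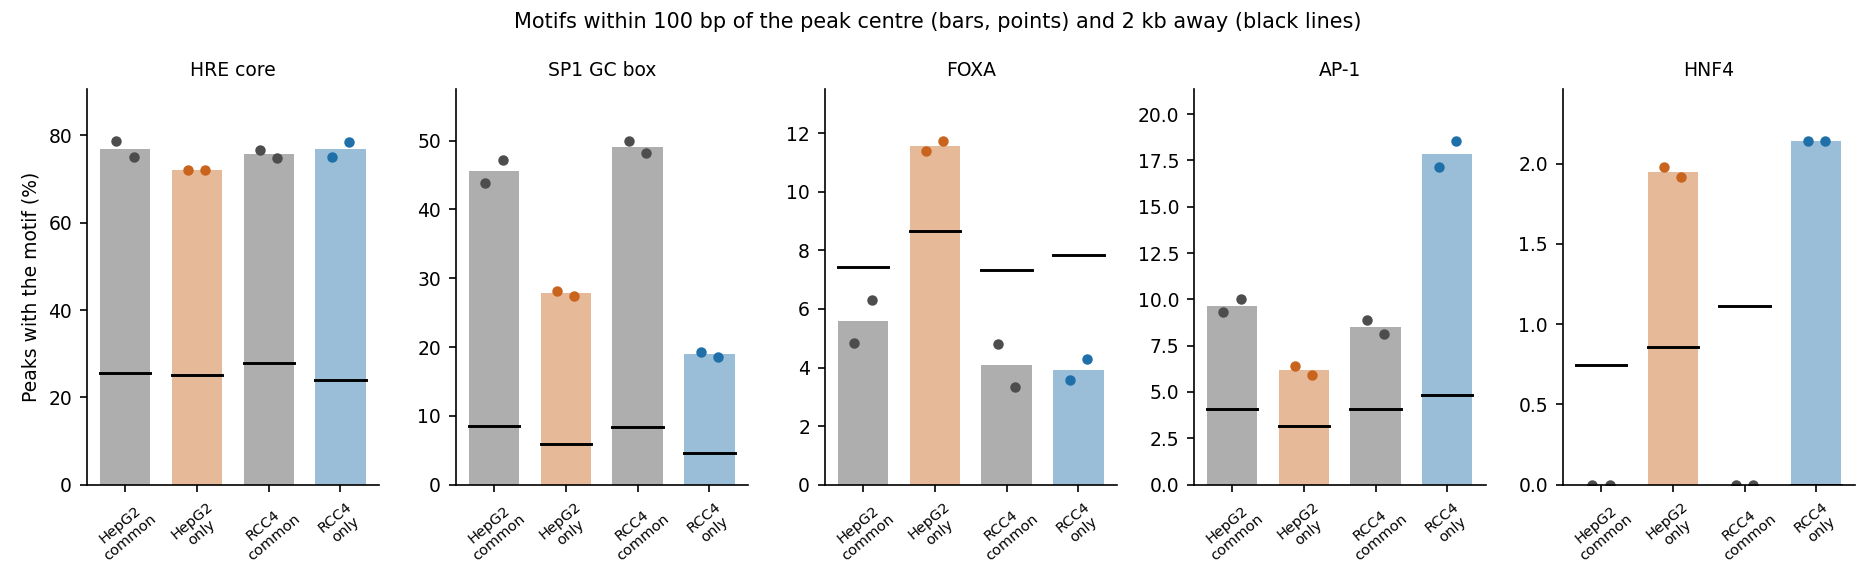
Share of sites with a motif within 100 bp of the peak centre, in percent, for common, HepG2-only and RCC4-only sites in each library, with the share in flanking windows at 2 kb. HRE cores stand at 72.00 to 78.81% in every class, FOXA is highest in HepG2-only sites and AP-1 in RCC4-only sites.

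The shares of AP-1, FOXA and HNF4 were apart between the full peak lists of the lines, although HNF4 was close between the line-only classes. AP-1 was in 6.570% and 5.287% of the HepG2 peaks and in 13% and 8.123% of the RCC4 peaks, and the groups did not overlap. FOXA was in 11.57% and 10.02% in HepG2 and in 6.167% and 3.985% in RCC4, again without overlap. The mean in flanking windows was 9.664% for HepG2, near the peak shares, and 8.011% for RCC4, above them. Mean GC content was 54.06% in HepG2 and 59.93% in RCC4 peaks, and its part was not tested. HNF4 was in 1.486% ± 0.2851 and 0.4885% ± 0.06779 (SD, n = 2). For AP-1, FOXA and HNF4 the exact permutation p was 0.33 and the adjusted p 0.6190. The GC box was also without overlap, in 22.61% of HepG2 and 29.65% of RCC4 peaks. The libraries overlapped for HNF1, in 0.6411% and 0.5818%, and for C/EBP, in 1.732% and 1.231%. Leaving out RCC4 replicate 2 or 3 changed the AP-1 difference of HepG2 minus RCC4 from -4.630 to -2.194 or -7.067 percentage points. The HRE core was in 54.61% ± 2.637 of HepG2 and 60.58% ± 6.998 of RCC4 peaks, and the libraries overlapped (exact permutation p = 0.6667). In lists of equal length the difference of HepG2 minus RCC4 turned from -5.972 to 12.11 percentage points. The test was also made over the 12 HIF-1α, HIF-2α and HIF-1β libraries of these lines, with line permuted within antibody, an extension chosen after seeing the data. Its grouping by antibody relies on the HepG2 isoform labels, which are uncertain for the reason given in the next paragraph. AP-1 was then in 6.393% ± 1.062 of HepG2 and 11.52% ± 2.833 of RCC4 peaks (SD, n = 6), with all 6 HepG2 libraries below every RCC4 library (exact two-sided permutation p = 0.009259, adjusted over 11 tests 0.06790). FOXA was in 12.58% and 6.802% and HNF4 in 1.603% and 0.7670%, each with 5 of 6 HepG2 libraries above every RCC4 library (exact permutation p = 0.01852 for both, adjusted 0.06790). HNF1 was in 0.6977% of HepG2 and 0.7947% of RCC4 peaks, and C/EBP in 2.205% and 1.395%. None of the 11 measures passed 0.05 after adjustment. The HIF-α libraries of a line share its cells and treatment with the HIF-1β libraries and are no new sample of the line.

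HIF-α peaks were a readout that did not set the classes. Before they are used, the lists need a caution. Promoter-proximal peaks made up 6.73% of HepG2 HIF-1α replicate 1 and 28.7% of replicate 2, and 30.6% of HepG2 HIF-2α replicate 1 and 8.08% of replicate 2. The replicates of an isoform were therefore less alike than libraries labelled as different isoforms, and HepG2 values that depend on the isoform label are uncertain. In RCC4 HIF-1α replicate 1 also stood apart, with 5674 peaks of which 39.00% were promoter-proximal, against 2106 peaks and 16.19% in replicate 2. All 269 common regions had a HIF-α peak in HepG2 and in RCC4 (100%, interval from 98.64%). So did 1618 HepG2-only regions in HepG2 (97.00%) and 136 RCC4-only regions in RCC4 (97.14%), while regions shifted by 10 kb gave 2.458% to 4.286%. These shares count a peak in any of 4 HIF-α lists. Where a peak in both replicates of 1 isoform was required, the share was 43.59% for HepG2-only, 85.71% for RCC4-only and, in HepG2 and RCC4, 71.00% and 87.73% for common regions. The shares of any list rest on calls in both HIF-1β libraries. With HepG2 replicate 1 or 2 left out the HepG2-only share was 56.52% or 59.63%, and with RCC4 replicate 2 or 3 left out the RCC4-only share was 31.27% or 61.52%, when all peaks of a single list counted as sites. In RCC4, both HIF-1α lists had a peak at 225 common regions (83.64%) and 91 RCC4-only regions (65.00%), and both HIF-2α lists had one at 146 (54.28%) and 105 (75.00%), an inverse order.

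In the other line, HIF-α peaks were unevenly placed. Of the HepG2-only regions, 712 (42.69%) had a HIF-α peak in RCC4 although neither RCC4 HIF-1β list had a peak there, beside 1.799% of shifted regions. Of the RCC4-only regions, 13 (9.286%) had a HIF-α peak in HepG2. The RCC4 HIF-1α replicate 1 list alone covered 691 HepG2-only regions (41.43%), and the other RCC4 lists covered 134 (8.034%) for HIF-1α replicate 2, 161 (9.652%) for HIF-2α replicate 1 and 60 (3.597%) for HIF-2α replicate 2. Without HIF-1α replicate 1 the count fell from 712 to 236.

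HepG2-only sites with and without an RCC4 HIF-α peak differed in place and in motifs. The 712 sites with such a peak were promoter-proximal in 70.79%, held a GC box in 45.22%, FOXA in 5.337% and HNF4 in 0.7022%. The 956 sites without it were promoter-proximal in 19.67%, held a GC box in 15.48%, FOXA in 16.21% and HNF4 in 2.929%. HRE cores were in 76.26% and 73.95%, and the median rank percentiles in HepG2 were 29.50 and 30.27. These differences changed when the promoter-rich RCC4 HIF-1α replicate 1 list was left out. Without it, 50.85% of 236 sites with and 39.94% of 1432 sites without an RCC4 HIF-α peak were promoter-proximal, FOXA was in 8.051% and 12.15%, the GC box was in 32.63% and 27.44%, and the median rank percentiles were 20.51 and 31.40.

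HKC-8, a renal tubular line, gave a further comparison. Its wild-type cells had 5085 HIF-1β sites, which overlapped 185 common regions (68.77%), 103 RCC4-only regions (73.57%, interval 65.46 to 80.66%) and 437 HepG2-only regions (26.20%, interval 24.10 to 28.38%). Shifted regions gave 3.346%, 4.286% and 1.739%. These HKC-8 cells had been held at 0.5% oxygen for 16 h, and RCC4-only sites overlapped their sites at a higher share than HepG2-only sites. The overlap varied with rank. It was 37.88% of HepG2-only sites in the highest HepG2 quintile and 15.37% in the last. For RCC4-only sites it was 78.57% in the highest RCC4 quintile and 54.55% in the last. The cause of the difference between the classes was not tested. A separate experiment in HKC-8 at the same oxygen and time overlapped 72.86% of common, 49.29% of RCC4-only and 5.336% of HepG2-only regions, in the same order of the line-specific classes. Among HepG2-only sites the overlap with the wild-type HKC-8 sites was 41.43% for those with an RCC4 HIF-α peak and 14.85% for those without, and it was 66.95% and 19.48% with RCC4 HIF-1α replicate 1 left out.

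Genes were described by their nearest sites. Of 19821 protein-coding genes, 1.31% were the nearest gene of a common region, 7.70% of a HepG2-only region and 0.696% of an RCC4-only region. Glycolysis and glucose uptake, the metabolic route best known to respond to HIF, had common sites at 17 of 22 listed genes (77.27%), from the transporter SLC2A1 and hexokinase HK2 through PFKL, ALDOA, GAPDH, PGK1, PKM and LDHA to the lactate exporter SLC16A3. Genes known to respond to hypoxia in many cells had them at 34 of 40 (85.00%). Among these, the site at VEGFA, the angiogenic growth factor, ranked 330 and 704 in HepG2 and 89 and 108 in RCC4. The site at CA9, the carbonic anhydrase of pH control, ranked 199 and 108 in HepG2 and 163 and 221 in RCC4. The site at KDM3A, a histone demethylase, ranked 5 and 1 in HepG2 and 65 and 29 in RCC4. These lists were composed with the HIF literature and earlier results of these data known, so their high common share is a description.

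Several glycolytic genes with a common site also had a site of 1 line. SLC2A1 had a common site at 3.967 kb from the TSS, with ranks of 229 and 317 in HepG2 and 113 and 126 in RCC4, and an intronic RCC4-only site with ranks of 93 and 106. HK2 had common sites at 0.1560 and 55.44 kb and a HepG2-only site at 17.06 kb, with ranks of 1634 and 866. SLC2A3 and PFKP had no common site but sites of either class. The RCC4-only SLC2A3 site, with ranks of 32 and 56, lay between HepG2-only sites with ranks of 283 and 642 and of 1814 and 3365. At PFKP, the platelet phosphofructokinase, an RCC4-only site was 0.3120 kb from the TSS (ranks 460 and 130) and a HepG2-only site 13.56 kb from it (ranks 633 and 1308). The HepG2-only PFKP site had a HIF-α peak in RCC4, and those of SLC2A3 had none.

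CITED2, which competes with HIF-α for the coactivator p300, had a HepG2-only site at its promoter, with ranks of 96 and 341, and was the nearest gene of an RCC4-only site 606.2 kb away. The HepG2-only CITED2 site also had a HIF-α peak in RCC4. In all, 21 genes were nearest to both a HepG2-only and an RCC4-only region. They were 1.375% of the genes near a HepG2-only region, beside 0.696% of all genes that were near an RCC4-only region. They were 15.22% of the genes near an RCC4-only region, beside 7.70% of all genes that were near a HepG2-only region.

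Of 11 genes of the oxygen sensing pathway, 3 had a common region (27.27%), 2 a HepG2-only (18.18%) and 1 an RCC4-only region (9.091%). Over all genes these shares were 1.31%, 7.70% and 0.696%. EGLN3, a prolyl hydroxylase that is itself a HIF target, had 3 common sites, the most of any gene, and 2 HepG2-only sites. The EGLN3 site 12.33 kb from the TSS ranked 84 and 103 in HepG2 and 37 and 32 in RCC4, and that at 109.2 kb ranked 974 and 1138 in HepG2 and 70 and 57 in RCC4. EGLN1, the main prolyl hydroxylase, had a common promoter site with ranks of 214 and 121 in HepG2 and 147 and 176 in RCC4. HIF3A had a common site and CITED2 the sites given above, and the other 7 genes had none of these classes.

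Of 33 listed genes of liver identity found in the annotation, 10 (30.30%) were nearest to a HepG2-only region, beside 7.70% of all genes, and none was nearest to a common or an RCC4-only region, beside 1.31% and 0.696% of all genes. At those shares a list of this size has few or no such genes, and 23 of the 33 had no region of any class. This list was also chosen with earlier results of these data known, so its HepG2-only share is a description. The site at APOC3, an apolipoprotein of triglyceride-rich particles, ranked 183 and 71. The site at EPO, the hormone of red cell production whose liver enhancer lies 3′ of the gene, was 3.322 kb from the TSS and ranked 152 and 412. AMBP, the gene of alpha-1-microglobulin and bikunin, had sites ranked 238 and 165 and 1517 and 834. TF, transferrin, had a site ranked 227 and 802, and SERPINA1, alpha-1-antitrypsin, had a site ranked 753 and 478, and both held a FOXA motif, as did that of ASGR1, the asialoglycoprotein receptor. HNF4A, a central liver transcription factor, had an intronic site ranked 498 and 1559. F2, AHSG and FOXA2 were the remaining genes. None of the 12 regions at these 10 genes had a HIF-α peak in any RCC4 list. Over all HepG2-only regions the share was 42.69%, or 236 of 1668 without RCC4 HIF-1α replicate 1. Of the HepG2-only regions with such a peak, 70.79% lay within 1 kb of a TSS. Among the regions at these liver genes, only those of F2 and ASGR1 did. In the list of common hypoxia genes 8 of 12 HepG2-only regions had an RCC4 HIF-α peak. Among them were those of LOX, GYS1, JMJD6 and ANGPTL4, each within 1 kb of a TSS, and that of VEGFA at 25.02 kb. The lists thus differed in distance to a TSS, and the difference between them in HIF-α peaks was not tested.

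Of 24 genes of the renal lineage and of clear cell carcinoma, 3 had a common region, 5 (20.83%) a HepG2-only and 4 (16.67%) an RCC4-only region. Over all genes, the shares of these classes were 1.31%, 7.70% and 0.696%. NDUFA4L2, which encodes a mitochondrial protein strongly raised in clear cell carcinoma, had a common site that ranked 1595 and 1097 in HepG2 and 4 and 4 in RCC4. TGFBI had a common site with ranks of 246 and 838 in HepG2 and 148 and 299 in RCC4. The RCC4-only sites were those of TGFA, a ligand of the EGF receptor, with ranks of 111 and 225, PAX2, a renal transcription factor, with 313 and 1195, CAV1, with 667 and 742, and MET, with 771 and 1161. TGFA had rank percentiles of 12.22 and 17.24, and the other 3 genes were at 34.47 or above in both lists. Genes with HepG2-only sites included EGFR, which had 3, and CXCR4, LGALS1 and AXL.

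Of the 12 genes of the AP-1 family, JUN had a common site and FOSL2 an RCC4-only site (8.333% each). FOS, JUN, JUND and MAFF (33.33%) had HepG2-only sites. Of the 7 HepG2-only regions at these genes, 3 had a HIF-α peak in RCC4, beside 42.69% of all HepG2-only regions. Of 20 genes of extracellular matrix and integrins, 1 had a common site, 3 had HepG2-only sites, 2 had RCC4-only sites and 15 had none of the classes. The common site was that of ITGB1. COL5A1 and FN1 were among the genes with HepG2-only sites, and COL4A1 was among those with RCC4-only sites. Over all genes, the shares of the common, HepG2-only and RCC4-only classes were 1.31%, 7.70% and 0.696%. The differences of these small lists from all genes were not tested. Genes with the most sites of 1 line were FOXN3 and NEDD4L, with 4 HepG2-only sites each, and BICD1 and TRIO, with 2 RCC4-only sites each.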

How the data were processed

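Per the submitters' processing notes and the study's methods, the authors trimmed reads (Trim Galore 0.3.3), aligned them to GRCh37 with BWA 0.7.5a-r405, handled them with SAMtools 0.1.19, bedtools 2.17.0 and Picard 1.106, and called peaks with MACS in each library. The study also called peaks with T-PIC and filtered those found by both callers, but the peak names in these lists are those of MACS and run without gaps, so the lists were taken as unfiltered MACS calls. The deposited files hold the peak positions and a peak score. Here, peaks on chromosomes 1 to 22, X and Y were compared by position with Python 3.11.15, numpy 2.4.6, scipy 1.17.1 and pyfaidx 0.9.0.4, and drawn with matplotlib 3.10.9. TSS came from GENCODE 44 lifted to GRCh37, with 89204 transcripts of protein-coding genes. Scripts were tested on simulated peaks. Libraries were compared with exact two-sided permutation tests, with Benjamini-Hochberg adjustment. Sites named were the 10 best-ranked common sites, 3 in each direction with the largest difference in rank, the 8 best-ranked HepG2-only and RCC4-only sites, and members of 7 gene lists. Single sites added for contrast were chosen after their values were seen. The members and lists were chosen with earlier results of these data known. Some listed genes and the sequence of 1 site are not reported here.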

Additional observations from a re-analysis of the deposited data

How the results depend on the processing

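No paired analysis was possible because nothing in the labels pairs a library of HepG2 with one of RCC4. The HIF-1β replicates were numbered 1 and 2 in HepG2 and 2 and 3 in RCC4. The test over 12 libraries and the equal number of sites were chosen after seeing the data. Peak lists limit all results, since unlisted positions have no value, depth is unknown and 2 libraries against 2 cannot pass 0.05. Requiring overlap of 50% of the shorter peak moved no result, and the higher AP-1 share in RCC4 and the higher FOXA and HNF4 shares in HepG2 kept their direction under every alternative run.

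With each library left out in turn, the share of RCC4 sites that were common ranged from 30.11% to 67.48% and that of HepG2 sites from 4.916% to 18.09%, since the line then had all peaks of a single list as sites. The promoter-proximal share of common sites exceeded that of HepG2-only sites by 15.64 to 32.46 points and that of RCC4-only sites by 38.32 to 46.18. The HRE core difference was 4.100 to 25.06 for common minus HepG2-only sites and -2.112 to 28.55 for common minus RCC4-only sites. HIF-α shares were 97.02% to 100.0% (HepG2 lists) and 98.21% to 100.0% (RCC4 lists) for common, 56.52% to 97.17% for HepG2-only and 31.27% to 97.26% for RCC4-only sites. The median rank percentile of common sites was 4.981 to 9.075 in HepG2 and 18.97 to 32.27 in RCC4.

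The cause of the following changes was not tested. In lists of equal length, 48.14% of RCC4 and 29.47% of HepG2 sites were common. The promoter-proximal difference of HepG2 minus RCC4 peaks reversed to 9.141 and that of the HRE core to 12.11. Common sites then exceeded HepG2-only sites by 32.42 and RCC4-only sites by 42.72 points in promoter-proximal share, and 100.0% of HepG2-only sites had a HIF-α peak. With scores of at least 100, 67.14% of RCC4 sites were common, the promoter-proximal differences were 20.77 and 47.16, the HRE core difference was 2.134 for common minus HepG2-only sites and reversed to 0.03846 for the lines, 99.90% of HepG2-only sites had a HIF-α peak and common sites had a median rank percentile of 30.39 in RCC4. With windows of 200 bp, 48.28% of RCC4 and 9.956% of HepG2 sites were common, the promoter-proximal differences were 14.02 and 35.06, and the HRE core difference to RCC4-only sites reversed to 3.212. It also reversed to 4.802 in whole peaks and 4.087 within 250 bp, and the difference to HepG2-only sites was 1.691 in whole peaks. A TSS within 5 kb gave 15.67 and 37.80 points, and TSS of all transcripts 20.57 and 37.63. With either replicate of the other line, 68.82% of RCC4 and 22.63% of HepG2 sites were common. With HIF-α in both replicates of an isoform, which relies on the doubtful HepG2 isoform labels, the shares were 71.00% (HepG2 lists) and 87.73% (RCC4 lists) for common, 43.59% for HepG2-only and 85.71% for RCC4-only sites. Among as many HepG2 as RCC4 sites, 40.31% were common. Over 12 libraries the promoter-proximal difference of HepG2 minus RCC4 reversed to 0.07436.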
